A study of Arabidopsis thaliana with 8 samples.

Results

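The *mips1 somi2* double mutant of *Arabidopsis thaliana* was compared with the wild type Col-0 over all genes, using the 2 RNA-seq libraries of each line, 4 of the 8 libraries in the series. The members are the genes of the count table, of which 23916 of 37336 had enough reads to be tested. The other 4 libraries, 2 of *somi2* and 2 of *mips1*, entered the same fit and are used to show where the double mutant differs from each single mutant. All lines are in the Col-0 background. *mips1* carries a T-DNA insertion in *MIPS1*, and *somi2* is a mutation in *BIG* that was isolated as a suppressor of the *mips1* lesions after chemical mutagenesis and cleaned by backcrossing, so that other mutations linked to either locus may have been carried along. For these lines the labels give the gene alone, and the allele name comes from the study's text. Each library holds RNA pooled from the rosette leaves of several plants, and nothing says whether the replicates are separate cultures, so that the spread between them may be technical. Per the labels, plants of all 4 lines spent 1 week in vitro in long days, 2 weeks on soil in short days and 5 days in long days, the condition in which *mips1* forms lesions. The study's methods give other lengths for the short-day and long-day periods.

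*MIPS1* encodes the major leaf isoform of myo-inositol-1-phosphate synthase, the enzyme that catalyses the rate-limiting step of inositol synthesis. Plants without it form light-dependent lesions of programmed cell death that depend on salicylic acid (SA). *BIG* encodes a very large membrane-associated protein of the UBR-box family, known for its part in polar auxin transport and in responses to jasmonate (JA) and light. The comparison with Col-0 asks how far the transcriptome of the suppressed plants remains from that of the wild type.

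The mutated genes were read first as a check of the labels. *MIPS1* (chromosome 4, 18469255 to 18472048, TAIR10) was at 120 and 152 CPM (counts relative to the library total, scaled for library composition) in Col-0, 104 and 94.7 in *somi2*, 5.30 and 6.12 in *mips1*, with 9.85 and 10.8 in *mips1 somi2*. Both lines labelled *mips1* were low, and the double mutant differed from Col-0 by -3.72 ± 0.13 on the log2 scale (fold change ± standard error, SE; adjusted p = 1.87e-09, edgeR quasi-likelihood test with Benjamini-Hochberg adjustment over all genes, as for every adjusted p here). *BIG* (chromosome 3, 430877 to 448680) was at 113 and 132 CPM in Col-0, 57.2 and 62.1 in *somi2*, 205 and 212 in *mips1*, with 93.4 and 89.9 in *mips1 somi2*. Against Col-0 the double mutant stood at -0.42 ± 0.08 on the log2 scale (adjusted p = 0.000654), a call that was lost when libraries were scaled by their totals alone (log2 fold change -0.035). The study describes *somi2* as the deletion of a guanine that brings an early stop codon, and it reports low *BIG* RNA in the *somi2* line. In CPM, *BIG* lay below Col-0 in both lines that carry *somi2*, less far in the double mutant. Since the deletion does not remove the gene, the level of *BIG* is no direct check of that label.

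Libraries held 50123257 to 104501879 counts, so that 3 counts, taken as the limit of detection in a library, correspond to 0.0273 to 0.0716 CPM. The 2 Col-0 libraries were farther apart than the replicates of any other line (median absolute difference of 0.131 on the log2 scale, against 0.0639 to 0.0814), and organelle genes took 2.67% of the counts in Col-0 replicate 1 and 0.926% in replicate 2. In Col-0, 11.6% and 12.5% of the counts came from the 10 most abundant genes, but in *mips1 somi2* only 6.87% and 7.0%. Leaf transcripts led every library, whereas 4 root markers summed to at most 0.109 CPM, 9 seed storage markers to at most 0.473 CPM and 8 flower organ markers to 3.08 to 4.11 CPM in all libraries.

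At an adjusted p under 0.05, 7428 genes (31.1%) were higher and 7338 (30.7%) lower in *mips1 somi2* than in Col-0, 61.7% of the tested genes in all. Both double mutant libraries lay above both Col-0 libraries for 39.4% of the genes and below them for 38.4%. Most of these differences were small, since 71.3% of the called genes changed by less than 1 on the log2 scale. Among changes of at least 1, increases outnumbered decreases, with 3035 genes higher (12.7%) and 1199 lower (5.01%). The median over all tested genes was 0, and a list of genes is read below against these shares. Scaling by library totals alone moved that median by 0.38 and the split to 13721 higher and 2848 lower genes, so directions are given relative to the bulk of the transcriptome. In the same fit, 4606 genes (19.3%) differed between *mips1 somi2* and *somi2* (8.46% higher and 10.8% lower in the double mutant), and 18663 (78%) between *mips1 somi2* and *mips1* (39.1% higher and 38.9% lower). These comparisons share the double mutant libraries.

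**Figure D1:**
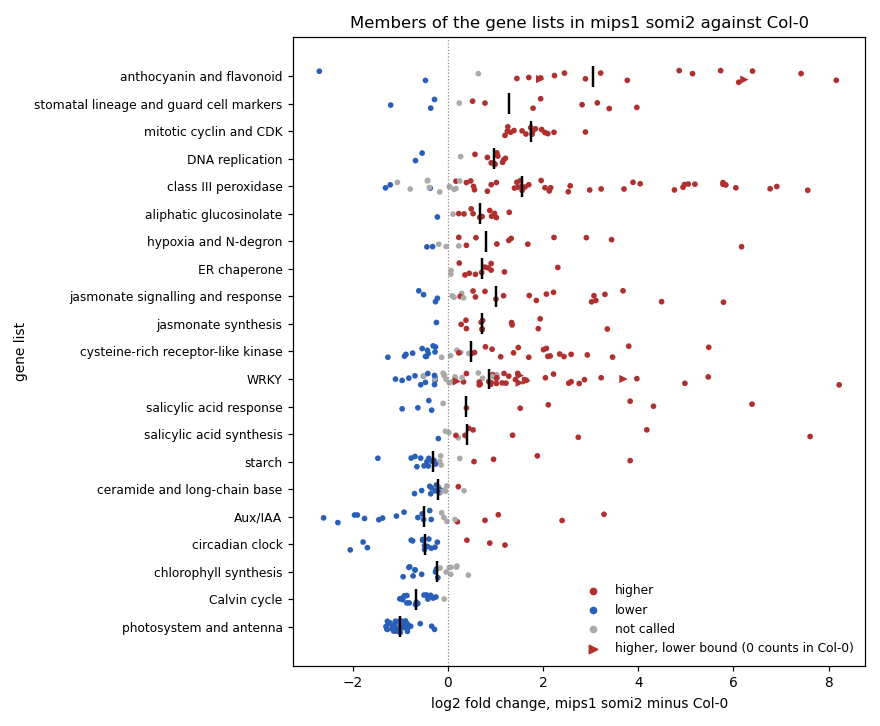
Log2 fold change between *mips1 somi2* and Col-0 (x axis) of each tested member of 21 gene lists (y axis). Points are genes, coloured by the test, triangles are lower bounds for genes without a count in Col-0, and bars are list medians; the medians run from -1.01 for photosystem and antenna genes to 3.05 for anthocyanin genes.

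Many genes with large increases had no count or hardly any in Col-0. The 10 largest increases by the fitted fold change were taken among called genes whose normalized counts averaged 50 or more and did not overlap between the groups, and all 10 were at 0 in both Col-0 libraries, so that only a lower bound of the fold change can be given, set against 3 counts per library, and genes with a few counts in Col-0 can have larger measured ratios. In all, 103 genes had at most 3 counts in each Col-0 library and a normalized count of at least 50 in each *mips1 somi2* library, and the reverse was found for 2 genes. Of the 103 genes, 90 had more than 3 counts in each *somi2* library and 43 in each *mips1* library.

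A run of 7 such genes lies on chromosome 4 between positions 11844242 and 11857417. It is made of *AT4G22475*, *AT4G22485*, *AT4G22495*, *AT4G22505*, *AT4G22510*, *AT4G22513* and *AT4G22517*, and 4 of them encode proteins of the bifunctional inhibitor and lipid-transfer family, small secreted proteins that bind lipids. *AT4G22505* had no count in Col-0, 1282 and 986 counts in *somi2*, 1 and 0 in *mips1*, with 1357 and 634 in *mips1 somi2*, which is at least 241-fold higher than in Col-0. *AT4G22513* had no count in Col-0 or *mips1* and was at 5.66 and 4.05 CPM in *mips1 somi2*, at least 90.8-fold higher. The run was thus detected in both lines that carry *somi2* and hardly in the others. *AT4G22475* contains *AT4G22485*, *AT4G22505* overlaps *AT4G22495*, and *AT4G22510* overlaps both *AT4G22513* and *AT4G22517*. Because the counting ignored the strand and gave a read to every gene it touched, the members of each overlap cannot be told apart, and the run amounts to 3 separate stretches.

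Another lipid-transfer family gene, *AT1G62500* (chromosome 1, 23131928 to 23133507), was the most abundant of the genes switched on. It was at 0.0716 and 0 CPM in Col-0, 39.9 and 40.4 in *somi2*, 0.112 and 0.0547 in *mips1*, with 49.5 and 44.0 in *mips1 somi2*. The ratio of its summed counts was 1988 (95% exact interval 680 to 9642, for counting error only, as for all such ratios). *CYP77B1*, a cytochrome P450 of a family with members that act in cutin synthesis, rose from 0 and 0.0118 CPM to 12.8 and 11.3 (ratio 1539, interval 276 to 60840). *CDEF1*, which encodes a cutinase, had no count in Col-0 and was at 5.00 and 2.94 CPM in *mips1 somi2*, at least 74.3-fold higher. Of all 55 tested genes annotated as lipid-transfer family members, 8 (14.5%) were among the 103, which are 0.431% of all tested genes, and 4 of the 8 lie in the run on chromosome 4. The family is not one of the gene lists used here and was singled out among the genes switched on. Its share is therefore a description and no independent evidence. Genes this low in Col-0 are also kept for testing mainly through the lines where they are higher.

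*AT1G64795* (chromosome 1, 24082579 to 24082848) was detected in the lines that carry *mips1*. It had no count in Col-0 or *somi2*, and was at 14.6 and 14.5 CPM in *mips1*, with 12 and 11.6 in *mips1 somi2*, at least 221-fold higher than in Col-0. It overlaps *AT1G64790*. The largest decrease among genes averaging at least 50 normalized counts was that of *AT1G27565* (chromosome 1, 9574550 to 9575189), which encodes a protein without annotated function. It showed the opposite pattern, with 93 and 169 counts in Col-0, 224 and 210 in *somi2*, none in *mips1*, with 2 and 1 in *mips1 somi2* (103-fold lower than Col-0, interval 35.0 to 504). *SEP2* (chromosome 3, 464279 to 467151), a MADS-box gene of flower organ identity, was the other gene that went to the detection limit. It fell from 40 and 81 counts in Col-0 to 1 and 0 in *mips1 somi2* (143-fold lower, interval 25.2 to 5702). Both single mutants were below Col-0 as well, at 21 and 7 counts in *somi2* and 2 and 9 in *mips1*.

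Genes of the shoot meristem and of organ boundaries were near the detection limit in Col-0 and were expressed in *mips1 somi2*. *STM*, the homeobox gene that keeps meristem cells undifferentiated, was at 0.0239 and 0.0118 CPM in Col-0, 4.43 and 3.52 in *somi2*, 0 and 0.0182 in *mips1*, with 4.31 and 3.81 in *mips1 somi2* (ratio to Col-0 259, interval 71.5 to 2147). *BP*, the related gene *KNAT1*, rose from 0.119 and 0.0706 CPM to 4.54 and 4.45 (log2 fold change 5.66 ± 0.22). All 5 tested members of the list of 7 were called higher, and these included the boundary genes *CUC2* (2.79 ± 0.36) and *CUC3* (4.19 ± 0.30). Leaving out either Col-0 library left 4 of the 5 called. None of the 5 was called between *mips1 somi2* and *somi2*, and all 5 were higher than in *mips1*. The 7 markers summed to 0.353 and 0.406 CPM in Col-0 and to 0.255 and 0.28 CPM in *mips1*. At such levels genes are kept for testing mainly through the lines where they are higher. The direction of the tested members against Col-0 and *mips1* was thus largely set in advance. The defining stem cell genes *WUS* and *CLV3* stayed at or below 0.0478 CPM in every library.

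The list of meristem markers summed to 0.353 and 0.406 CPM in the Col-0 libraries and 11.1 to 11.3 CPM in the *mips1 somi2* libraries. In leaf RNA from whole organs, more cells of a type and more RNA per cell cannot be told apart. These summed levels differed in the same direction as the early stomatal and cell cycle genes that follow, and their part in those groups was not tested.

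*GL1*, the MYB gene that starts trichome formation, had no count in either Col-0 or either *mips1* library, and was at 2.26 and 2.4 CPM in *somi2*, with 2.65 and 3.34 in *mips1 somi2*, at least 56.1-fold higher than in Col-0. *GL2*, which acts after it in trichome differentiation, was at 179 and 117 CPM in Col-0, with 127 and 123 in *mips1 somi2*, and was not called (-0.24 ± 0.17, adjusted p = 0.258). Without Col-0 replicate 2 it was called at -0.50, and without replicate 1 its value was 0.092 and not called. *GL2* overlaps other genes.

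Genes of the early stomatal lineage rose. *SPCH*, the bHLH gene that starts the lineage, was at 1.43 and 1.21 CPM in Col-0, 9.45 and 8.81 in *somi2*, 0.377 and 0.355 in *mips1*, with 11.5 in both *mips1 somi2* libraries (3.14 ± 0.12). *EPF2*, a secreted peptide that limits entry into the lineage (3.97 ± 0.21), *BASL*, which marks the polar side of the dividing cell (3.39 ± 0.16), and the receptor-like gene *TMM* (2.82 ± 0.11) rose as well. The increases were smaller for the later genes *MUTE* (1.79 ± 0.18) and *FAMA* (0.52 ± 0.078). Of the genes of mature guard cells, the potassium channel *KAT1* fell from 37.9 and 38.3 CPM to 16.5 and 16.6 (-1.2 ± 0.063). *MYB60* (-0.36 ± 0.084) and the anion channel gene *SLAC1* (-0.28 ± 0.092) were called lower as well, but both turned positive with scaling by library totals alone (0.025 and 0.10), where *KAT1* was the 1 lower gene of the list. The call of *SLAC1* was also lost without Col-0 replicate 1 (-0.19) or *mips1 somi2* replicate 1 (-0.24), and the gene overlaps others. Over the list of 12, 8 were called higher and 3 lower, with a median of 1.28 against 0 for all genes.

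**Figure D2:**
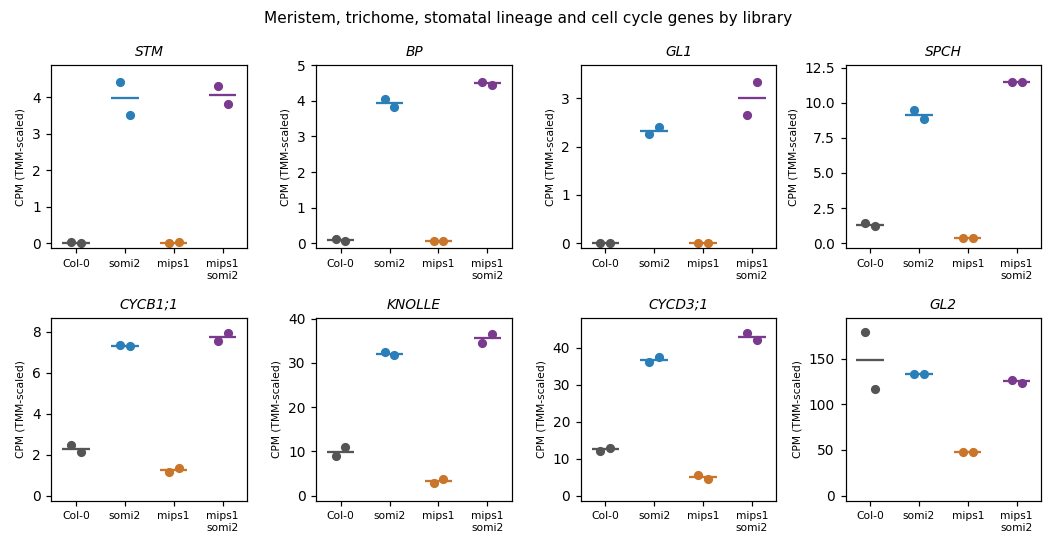
Level in CPM (y axis, linear) of 8 genes in the 2 libraries of each line (points; bars are means). *STM*, *BP* and *GL1* lay near 0 in Col-0 and *mips1* and above 2 CPM in *somi2* and *mips1 somi2*, while *GL2* in *mips1 somi2* lay within the range of the Col-0 libraries.

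The genes of cell division rose as a group. All 16 mitotic cyclin and cyclin-dependent kinase genes of the list, which also holds the cytokinesis gene *KNOLLE*, were called higher, with a median of 1.75. *CYCB1;1*, a cyclin of the entry into mitosis, was at 2.46 and 2.13 CPM in Col-0, 7.36 and 7.30 in *somi2*, 1.17 and 1.35 in *mips1*, with 7.57 and 7.94 in *mips1 somi2* (1.77 ± 0.12). The largest change of the list was that of *CYCB2;1* (2.89 ± 0.21), and the plant-specific kinase gene *CDKB1;1* changed by 2.23 ± 0.15. *KNOLLE*, a syntaxin of the cell plate, rose from 8.88 and 10.9 CPM to 34.6 and 36.6 (1.84 ± 0.11). None of the 16 differed from *somi2* at the threshold, and all 16 were higher than in *mips1*. Most of the 16 are also in a list of 28 cell cycle genes that the study had chosen on these same samples. For those genes the shared direction is no independent evidence. Of the genes named here, *CYCB1;1*, *CDKB1;1* and *KNOLLE* are not in that list.

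Genes of DNA replication rose less. Of 14, 11 were called higher and 2 lower, with a median of 0.98, and *RNR1* and *TSO2*, which encode the subunits of ribonucleotide reductase, changed by 1.21 ± 0.08 and 0.91 ± 0.076. The licensing gene *CDC6* went against the group (-0.68 ± 0.10). Of 14 D-type cyclins and inhibitors of cyclin-dependent kinases, 7 were higher and 4 lower, against 31.1% and 30.7% of all genes. The cyclins are too few in this list to make up the 7 higher genes, so inhibitors were among these as well. The higher genes included *CYCD3;1*, a cyclin of proliferating leaf cells (12.2 and 13 CPM in Col-0, 43.9 and 42.1 in *mips1 somi2*, 1.76 ± 0.083), and the lower genes included the inhibitors *SMR1* (-0.69 ± 0.072) and *KRP1* (-0.58 ± 0.087). With scaling by library totals alone 9 were higher and 1 lower, and *KRP1* was no longer called (-0.20). The study's list of 28 cell cycle genes, which also holds *CYCD3;1*, was chosen on these samples. It was called higher throughout, which is no independent evidence of its direction.

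Upstream windows are shown here because these genes moved together. The 250 bases before the annotated gene start were read from the RefSeq sequence of TAIR10.1, 5′ to 3′ on the gene's own strand, and searched on both strands for AACGG, the core of the mitosis-specific activator element to which MYB3R factors bind. It was present in 9 of the 16 windows (56.2%), in 21.4% of the windows of all 23775 genes with a window and in 21.4% of those of genes higher by at least 1. Other lists differed widely. The share was 47.1% for genes of auxin synthesis, conjugation and transport, of which more were lower than higher, and 0% for aliphatic glucosinolate genes. Capitals mark the core, which reads CCGTT on the opposite strand, in 3 B-type cyclin genes with several copies.
*CYCB1;1*, chr4:17624309-17624558, minus strand: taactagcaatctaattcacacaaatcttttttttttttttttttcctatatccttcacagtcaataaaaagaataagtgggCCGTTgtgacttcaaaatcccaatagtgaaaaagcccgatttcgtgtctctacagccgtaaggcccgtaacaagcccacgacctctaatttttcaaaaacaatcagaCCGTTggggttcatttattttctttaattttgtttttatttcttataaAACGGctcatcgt
*CYC1BAT*, chr5:1861704-1861953, minus strand: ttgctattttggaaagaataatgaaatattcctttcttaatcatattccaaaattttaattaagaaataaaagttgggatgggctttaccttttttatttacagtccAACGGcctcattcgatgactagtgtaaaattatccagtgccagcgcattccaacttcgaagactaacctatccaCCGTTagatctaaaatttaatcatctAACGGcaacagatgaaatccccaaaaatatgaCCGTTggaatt
*CYCB2;1*, chr2:7663805-7664054, plus strand: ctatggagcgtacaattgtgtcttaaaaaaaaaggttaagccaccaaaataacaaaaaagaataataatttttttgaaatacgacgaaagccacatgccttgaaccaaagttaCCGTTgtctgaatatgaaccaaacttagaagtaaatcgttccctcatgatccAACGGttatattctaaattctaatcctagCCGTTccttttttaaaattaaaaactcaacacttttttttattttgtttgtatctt
The 3 genes rose by 1.77, 2.04 and 2.89 on the log2 scale. A match describes the letters of a window and says nothing of binding.

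The pathway of the red and purple leaf pigments rose most of all lists that hold more than 10 genes. Of 20 genes, 17 were called higher and 2 lower, with a median of 3.49, or 3.05 with the 3 genes at the detection limit in Col-0 set to their bound or count ratio. The early enzymes, shared with other flavonoids, rose moderately: *CHS*, chalcone synthase, was at 18.4 and 21.2 CPM in Col-0, 84.8 and 79.9 in *somi2*, 22.9 and 23.4 in *mips1*, with 114 and 102 in *mips1 somi2* (2.45 ± 0.084), and *CHI* and *F3H* changed by 1.45 ± 0.10 and 1.95 ± 0.10. The late enzymes, which act only towards anthocyanins and related products, rose more. *DFR*, dihydroflavonol reductase, was at 0.382 and 0.424 CPM in Col-0, 26.2 and 23.3 in *somi2*, 5.62 and 6.09 in *mips1*, with 36.5 and 32.9 in *mips1 somi2* (6.40 ± 0.13). *LDOX*, the next enzyme, rose by 6.11 ± 0.17, and the enzymes that decorate the pigment, the glycosyltransferase *UF3GT* and the malonyltransferase *5MAT*, by 8.16 ± 0.21 and 7.42 ± 0.24.

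The regulators moved in both directions. *MYB75* (*PAP1*), an activator of the pathway, rose from 1.31 and 1.13 CPM in Col-0 to 9.18 and 8.62 (2.89 ± 0.14), and the bHLH partners *TT8* (5.14 ± 0.27), *GL3* (4.86 ± 0.34) and *EGL3* (3.21 ± 0.16) rose with it. *MYB113*, a close relative of *MYB75*, had no count in Col-0, and was at 0.732 and 0.635 CPM in *somi2*, 0.308 and 0.264 in *mips1*, with 3.33 and 4.67 in *mips1 somi2*, at least 74.9-fold higher than in Col-0. *MYBL2*, a repressor of the pathway, fell from 174 and 165 CPM in Col-0 to 27.5 and 24.9 (-2.7 ± 0.075), below both *somi2* (67.5 and 66.5) and *mips1* (77.6 and 72.1). *TTG1*, the WD40 partner, was lower by -0.47 ± 0.064, a call lost when libraries were scaled by their totals alone.

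Part of the pathway was also higher than in both single mutants. Against *somi2*, 10 of the 20 genes were called higher and 1 lower (median 0.46), and against *mips1* 17 were higher and 2 lower (median 2.23). The difference from *somi2* was 0.49 for *DFR*, 0.60 for *LDOX*, 0.78 for *UF3GT* and 2.54 for *MYB113*, and that of *MYBL2* was -1.35, all past the threshold.

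**Figure D3:**
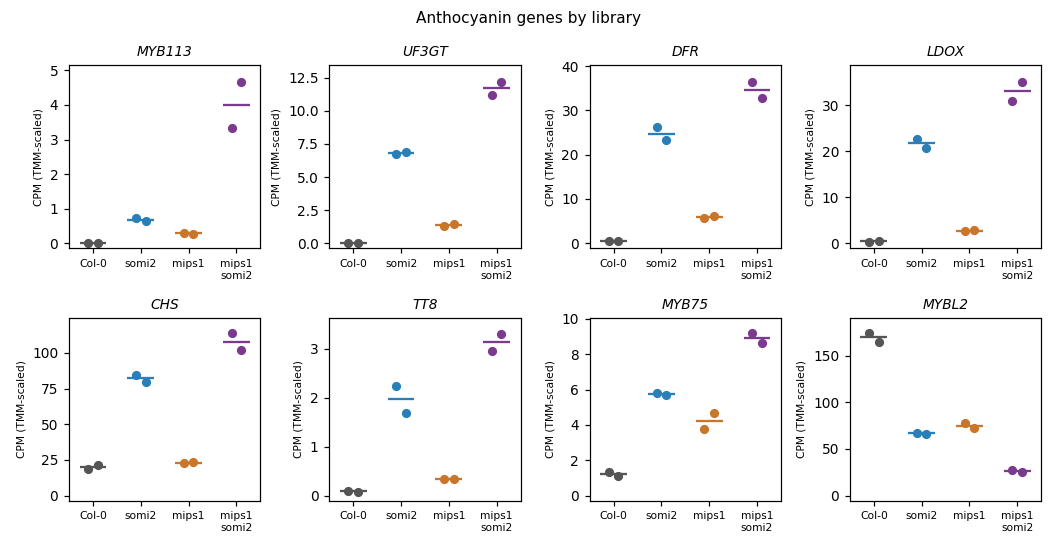
Level in CPM (y axis, linear) of 8 anthocyanin genes in the 2 libraries of each line (points; bars are means). The first 7 were highest in *mips1 somi2*, whereas the repressor gene *MYBL2* was highest in Col-0 and lowest in *mips1 somi2*, at 27.5 and 24.9 CPM.

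The windows before *UF3GT* and *DFR* are given for the letters CACGTG, the G-box to which bHLH and bZIP factors bind, which is its own reverse complement. It stood in 7 of the 20 windows (35%), against 6.79% of those of all genes and 7.36% of those of genes higher by at least 1. The share was not particular to this list or to genes that rose. It was 35.3% for circadian clock, 27.8% for photosystem and antenna, 33.3% for iron and 46.2% for endoplasmic reticulum chaperone genes. Other lists were lower, down to 0% for indole glucosinolate and camalexin genes. Capitals mark the motif.
*UF3GT*, chr5:21938397-21938646, minus strand: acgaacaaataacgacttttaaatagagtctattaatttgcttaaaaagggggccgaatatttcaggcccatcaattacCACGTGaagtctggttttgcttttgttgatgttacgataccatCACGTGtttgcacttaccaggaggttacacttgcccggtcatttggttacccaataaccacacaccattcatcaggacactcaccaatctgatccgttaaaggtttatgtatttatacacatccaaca
*DFR*, chr5:17166033-17166282, minus strand: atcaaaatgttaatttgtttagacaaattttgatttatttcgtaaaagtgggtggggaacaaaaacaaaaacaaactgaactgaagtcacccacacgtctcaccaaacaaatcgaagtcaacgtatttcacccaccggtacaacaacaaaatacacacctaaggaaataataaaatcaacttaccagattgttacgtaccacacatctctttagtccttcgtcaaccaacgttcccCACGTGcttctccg

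Several SA genes remained above Col-0 in *mips1 somi2*, at levels far below those of *mips1*. *PR1*, the classical marker of the SA response, was at 1.03 and 1.06 CPM in Col-0, 7.37 and 5.85 in *somi2*, 1561 and 1555 in *mips1*, with 91.6 and 84.3 in *mips1 somi2*. It was thus higher than in Col-0 by 6.39 ± 0.13, higher than in *somi2* by 3.73 and lower than in *mips1* (-4.15), all past the threshold. *PR5* (4.32 ± 0.10) and the glucanase gene *PR2* (3.83 ± 0.091) lay in the same order. The receptor genes *NPR3* (-0.63 ± 0.064) and *NPR4* (-0.40 ± 0.067, a call lost with scaling by library totals alone) and *WRKY70*, a transcription factor gene of the SA response, went the other way: *WRKY70* was at 120 and 121 CPM in Col-0, 427 and 452 in *mips1*, with 59.2 and 64.0 in *mips1 somi2* (-0.96 ± 0.069). Over the 11 response genes, 6 were higher and 4 lower than in Col-0, against 31.1% and 30.7% of all genes. All 11 were lower than in *mips1*, against 38.9% of all genes.

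Among 12 genes of SA synthesis and its amplification, 8 were higher than in Col-0 and 1 lower. *ICS1*, which makes the SA precursor isochorismate, was at 7.45 and 8.61 CPM in Col-0, 11.6 and 11.2 in *somi2*, 114 and 126 in *mips1*, with 20.8 and 20.6 in *mips1 somi2* (1.36 ± 0.084). *PBS3*, which acts after *ICS1*, changed by 2.74 ± 0.13. The largest changes were in *FMO1* and *ALD1*, which make the immune signal N-hydroxypipecolic acid: *FMO1* was at 0.143 and 0.0235 CPM in Col-0, 0.469 and 0.317 in *somi2*, 91.7 and 104 in *mips1*, with 12.4 and 13.1 in *mips1 somi2* (7.61 ± 0.27), and *ALD1* changed by 4.18 ± 0.17. The 5 regulators of the list changed less and in both directions. *EDS1* (0.44 ± 0.08) and *SARD1* (0.17 ± 0.066) were called higher, *PAD4* (-0.20 ± 0.065) lower, and *CBP60G* (-0.051 ± 0.073) and *SAG101* (0.022 ± 0.067) were not called. *PAD4* and *CBP60G* turned positive with scaling by library totals alone. The call of *PAD4* was lost without Col-0 replicate 1 (-0.15) or either *mips1 somi2* library (-0.19 and -0.21), and that of *SARD1* without Col-0 replicate 2 (0.13) or either *mips1 somi2* library (0.20 and 0.15).

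*PAD3*, the last enzyme of the synthesis of camalexin, the main phytoalexin of Arabidopsis, was at 0.597 and 0.918 CPM in Col-0, 1.02 and 1.09 in *somi2*, 197 and 228 in *mips1*, with 52.1 and 52.7 in *mips1 somi2* (6.03 ± 0.13). *CYP71A13*, an earlier enzyme, rose by 4.91 ± 0.18 and *CYP79B2*, which also serves indole glucosinolates, by 2.72 ± 0.093. The double mutant and *somi2* were far apart for *PAD3*, which differed by 5.63, and closer for *CYP71A13*, which differed by 1.85. Aliphatic glucosinolate genes, a separate branch, were higher in 11 of 13 cases with a median of 0.67, and none of them differed from *somi2*.

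JA synthesis genes rose nearly throughout, with 12 of 13 tested genes higher, 1 lower and a median of 0.72. *LOX2*, the lipoxygenase of the first step, was at 475 and 602 CPM in Col-0, 1192 and 1090 in *somi2*, 1406 and 1598 in *mips1*, with 1432 and 1308 in *mips1 somi2* (1.35 ± 0.11), and differed from neither single mutant at the threshold (adjusted p = 0.12 and 0.28). *AOC3*, an allene oxide cyclase, rose by 3.35 ± 0.15. Of 25 signalling and response genes, 17 were higher and 4 lower, with a median of 1.01, and the 4 lower genes were the receptor gene *COI1* (-0.51 ± 0.064) and the repressor genes *JAZ3*, *JAZ6* and *JAZ11*. Only 1 of them was called lower with scaling by library totals alone, where *COI1* was at -0.13 and not called and *JAZ3* and *JAZ6* turned positive (0.16 and 0.13). The call of *JAZ3* was also lost without Col-0 replicate 2 (-0.12) or *mips1 somi2* replicate 2 (-0.16), and that of *JAZ6* without *mips1 somi2* replicate 2 (-0.18).

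The repressor genes named by the study rose by differing amounts. *JAZ1* changed by 0.78 ± 0.072, *JAZ5* by 3.3 ± 0.082, *JAZ7* by 2.07 ± 0.20 and *JAZ10* by 3.11 ± 0.097. *JAZ10* was at 2.2 and 2.01 CPM in Col-0, 7.25 and 7.51 in *somi2*, 10.5 and 11.5 in *mips1*, with 18.3 and 17.8 in *mips1 somi2*, above both single mutants, whereas *JAZ7* was lower than in *somi2* (-0.83). *JAZ10* overlaps *AT5G02045*, and the reads of the pair cannot be told apart.

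The outputs were led by *VSP1*, a vegetative storage protein gene of the MYC2 branch, at 2.24 and 2.88 CPM in Col-0, 57.0 and 53.0 in *somi2*, 24.0 and 26.2 in *mips1*, with 145 in both *mips1 somi2* libraries (5.79 ± 0.11). *VSP2* rose by 4.49 ± 0.076, and both were above *somi2* (1.40 and 1.07) and *mips1* (2.53 and 2.41). The ethylene and JA branch was also up, with *PDF1.2*, a defensin gene, at 3.02 ± 0.11 and *ERF1* at 2.22 ± 0.24, but these were below *mips1* (-1.96 and -2.61). Of the ethylene synthesis genes named by the study, *ACO3* was not analysed here, *ACS5* fell from 1.5 and 1.62 CPM to 0.557 and 0.532 (-1.52 ± 0.22) and *ACS8* from 4.13 and 3.82 to 0.751 and 0.931 (-2.24 ± 0.21).

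**Figure D4:**
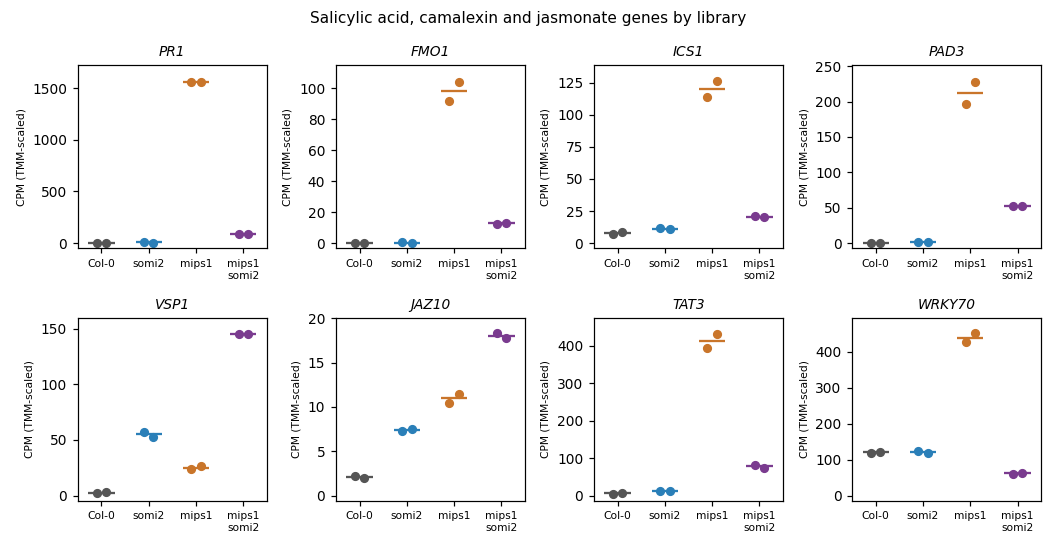
Level in CPM (y axis, linear) of 8 SA, camalexin and JA genes in the 2 libraries of each line (points; bars are means). *PR1*, *FMO1*, *ICS1*, *PAD3* and *TAT3* were highest in *mips1*, *VSP1* and *JAZ10* were highest in *mips1 somi2*, and *WRKY70* was lowest there.

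Larger families of defence genes moved in both directions. Of 63 tested WRKY transcription factor genes, 36 were higher and 12 lower, while 31.1% and 30.7% of all genes were. Of the 63, 9 were at the detection limit in Col-0 or *mips1 somi2*. Their direction was largely set in advance, since such genes are kept for testing mainly through the lines where they are higher. *WRKY14* rose from 0.0239 and 0 CPM in Col-0 to 2.31 and 2.38 in *mips1 somi2* (ratio 297, interval 53.0 to 11780), and was at 1.86 and 1.92 in *somi2*. *WRKY67* had no count in Col-0, and was at 0 and 0.0151 CPM in *somi2*, 0.308 and 0.310 in *mips1*, with 0.533 and 0.843 in *mips1 somi2*, at least 12.9-fold higher than in Col-0. *WRKY22*, a gene of the response to bacterial patterns, fell by 1.10 on the log2 scale (SE 0.10). Cysteine-rich receptor-like kinase genes were higher in 20 and lower in 12 of 37 cases, and 32 of the 37 were lower than in *mips1*. *CRK39* rose by 3.80 ± 0.41, and *CRK19* fell from 48.8 and 48.4 CPM to 20.7 and 20.0 (-1.26 ± 0.063).

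Class III peroxidase genes, whose products act in the cell wall, rose more uniformly, with 39 of 53 tested genes higher, 3 lower and a median of 1.55. Of the 53, 10 were at the detection limit in Col-0 or *mips1 somi2*. Such genes are kept for testing mainly through the lines where they are higher, so their direction was largely set in advance. *AT2G38390* rose from 0.0239 and 0.0235 CPM in Col-0 to 4.39 and 4.58 in *mips1 somi2* (ratio 189, interval 64.5 to 920), and *PRXR1*, the most abundant member per length, from 1369 and 1411 CPM to 2082 and 1968 (0.54 ± 0.065). Against *somi2*, 17 of the peroxidase genes were higher and none lower.

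Photosynthesis genes were lower in *mips1 somi2*. All 36 nuclear genes listed for the photosystems and their antennae were called lower, with a median of -1.01, and 32 of them were also lower than in *somi2* (median -0.35), while 35 were higher than in *mips1* (median 0.79). With scaling by library totals alone, 33 of the 36 were still called lower and the median was -0.63. *LHCB5*, an antenna protein of photosystem II, was at 10900 and 11001 CPM in Col-0, 6239 and 6129 in *somi2*, 2573 and 2756 in *mips1*, with 4575 and 4509 in *mips1 somi2* (-1.27 ± 0.06). The 4 groups did not overlap, and the double mutant stood between the single mutants. Outside that list, the antenna gene *LHB1B1* showed the largest decrease among the 10 most abundant nuclear genes of Col-0, from 11168 and 9568 CPM to 2538 and 2473 (-2.05 ± 0.077). *LHB1B2*, the most abundant of the 10, fell by 1.54 on the log2 scale (SE 0.067), but it overlaps *AT2G08665*, which has the same values. Some antenna genes are near-identical copies, and their counts are uncertain.

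Of 19 genes of the carbon-fixing Calvin cycle, 18 were lower, with a median of -0.66, and 11 were called lower and 1 higher with scaling by library totals alone. *RBCS1A*, a small subunit of Rubisco, was at 15996 and 15026 CPM in Col-0, with 10533 and 8982 in *mips1 somi2* (-0.67 ± 0.075). Of 18 genes of chlorophyll synthesis, 10 were lower and none higher. Their median of -0.23 turned to 0.16 with scaling by library totals alone, and leaving out Col-0 replicate 2 gave 4 higher and 8 lower genes. *HEMA1*, which encodes the enzyme that commits glutamate to the pathway, fell from 778 and 809 CPM to 407 and 422 (-0.94 ± 0.067).

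Starch genes were lower in 12 and higher in 4 of 20 cases, with a median of -0.31 that turned to 0.069 with scaling by library totals alone (5 lower and 7 higher). The genes that rose were led by *BAM5*, an extraplastidic beta-amylase of the phloem, at 4.73 and 5.65 CPM in Col-0, 44.6 and 41.6 in *somi2*, 12.2 and 13.6 in *mips1*, with 74.9 and 74.6 in *mips1 somi2* (3.83 ± 0.096), and by *GBSS1*, which makes amylose (1.88 ± 0.097). *BAM3*, the main beta-amylase of starch breakdown at night, fell from 287 and 310 CPM to 109 and 106 (-1.47 ± 0.076) and was also below *somi2* (-0.60) and *mips1* (-1.73).

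Genes of the circadian clock moved in both directions. *LHY*, which peaks at dawn, was at 14.7 and 15.9 CPM in Col-0, 40.2 and 39.4 in *somi2*, 18.3 and 16.0 in *mips1*, with 35.2 and 35.1 in *mips1 somi2* (1.2 ± 0.078), and its partner *CCA1* rose by 0.40 ± 0.064. Genes that peak later in the day fell: *PRR5* from 40.7 and 47.4 CPM to 13.8 and 13.6 (-1.69 ± 0.081), *ELF4*, of the evening complex, from 22 and 21.0 to 6.06 and 6.43 (-1.78 ± 0.068), and *FKF1*, a blue light receptor of flowering, from 39.6 in both libraries to 9.66 and 9.45 (-2.05 ± 0.067). Over the 17 genes, 3 were higher and 14 lower, with a median of -0.49, and 5 were called lower with scaling by library totals alone. *PRR5* (-1.04), *ELF4* (-0.58) and *FKF1* (-0.94) were also lower than in *somi2*, and *LHY* did not differ from it at the threshold. The hour of harvest of each line is not given in the sources used here, and its part in these values was not tested. Of 15 genes of flowering and phase change, 3 were higher and 7 lower, against 31.1% and 30.7% of all genes. The lower genes were led by the repressor gene *MAF5* (-2.25 ± 0.21). The list median of -0.25 turned to 0.13 with scaling by library totals alone.

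Genes of leaf senescence were split, with 4 of 12 higher and 5 lower, while 31.1% and 30.7% of all genes were. *SAG13* rose from 4.11 and 3.40 CPM in Col-0 to 25.3 and 23.7 (2.73 ± 0.092), where *mips1* was at 454 and 444. *NAP*, a NAC regulator of senescence, fell from 52.2 and 43.1 CPM to 6.19 and 6.11 (-2.95 ± 0.096), and *somi2* was at 6.24 and 6.89. *SEN1*, a gene induced in the dark, fell from 53.5 and 48.5 to 5.60 and 5.35 (-3.22 ± 0.079).

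The rest of the inositol pathway gave a mixed picture. Of the other synthase genes, *MIPS2* rose from 11.2 and 14.5 CPM in Col-0 to 31.8 and 31.7 (1.29 ± 0.099), which did not differ from *somi2* at the threshold (26.8 and 25.8 CPM), and *MIPS3* was at 18.5 and 25.7 CPM in Col-0, with 23.0 and 23.5 in *mips1 somi2* (0.062 ± 0.15, not called). *MIPS2* overlaps other genes. Over the 6 synthesis genes, 1 was higher and 2 lower, the latter *MIPS1* and *IMPL1* (-0.27 ± 0.08), whose direction turned with scaling by library totals alone and whose call was lost without Col-0 replicate 2 (-0.17) or either *mips1 somi2* library (-0.25 and -0.27). There were 4 higher and 1 lower with scaling by library totals alone, and 3 higher and 1 lower without Col-0 replicate 2, where *MIPS3* was called higher (0.34). Among 13 tested genes that use inositol, 6 were higher and 4 lower, against 31.1% and 30.7% of all genes. *GOLS1*, a galactinol synthase gene of stress responses, rose from 10.6 and 9.61 CPM to 40.9 and 35.7 (1.93 ± 0.085), above both single mutants. *MIOX1*, an inositol oxygenase gene, fell from 21.1 and 19.0 to 6.46 and 7.97 (-1.48 ± 0.10). *MIOX4* was at 31.2 and 30.8 CPM in *mips1* but at 0.158 and 0.177 in *mips1 somi2* and 0 and 0.0353 in Col-0 (ratio to Col-0 7.04, interval 2.15 to 36.4).

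Genes of ceramides and long-chain bases, the lipids at the base of the sphingolipid pathway, differed little in size from Col-0. Of 18 genes, 1 was higher and 11 lower, with a median of -0.20. With scaling by library totals alone 8 were higher and 2 lower and the median turned to 0.18. *LOH2*, a ceramide synthase gene, was at 11.5 and 10.9 CPM in Col-0, 9.83 and 10.5 in *somi2*, 32.9 in both *mips1* libraries, with 10.6 and 11.5 in *mips1 somi2*. It did not differ from Col-0 at the threshold (-0.020 ± 0.075, adjusted p = 0.833) and was lower than in *mips1* (-1.58). *SLD1*, a long-chain base desaturase gene, showed the largest decrease of the list (-0.70 ± 0.067).

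In the list of hypoxia and N-degron genes, chosen because BIG carries a UBR box, 11 of 16 were higher and 2 lower. *PCO1*, which encodes a plant cysteine oxidase that marks oxygen-sensitive factors for degradation, was at 0.310 and 0.200 CPM in Col-0, 2.65 and 1.86 in *somi2*, 0.0559 and 0.0911 in *mips1*, with 2.7 and 2.54 in *mips1 somi2* (3.44 ± 0.27). *PCO2* rose from 0.0239 and 0.0118 CPM to 1.10 and 1.18 (ratio 72.2, interval 19.7 to 601). The arginyltransferase gene *ATE1*, which acts later in the same pathway, was slightly lower (-0.44 ± 0.083), a call lost with scaling by library totals alone.

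Chaperones of the endoplasmic reticulum rose in 11 of 13 cases with none lower (median 0.71), and all 13 were lower than in *mips1*. *BIP3*, a marker of the unfolded protein response, was at 0.549 and 0.424 CPM in Col-0, 71.8 and 79.6 in *mips1*, with 2.33 and 2.32 in *mips1 somi2* (2.31 ± 0.17). Of 9 heat shock genes, 6 were higher and none lower (5 and 4 without Col-0 replicate 1 or 2), led among genes with more than 3 counts in each group by *HSFA2* (2.25 ± 0.15). Genes of reactive oxygen production and removal split, with 4 higher and 8 lower of 14, against 31.1% and 30.7% of all genes. That balance turned to 6 higher and 3 lower with scaling by library totals alone. The kinase gene *OXI1* rose by 3.15 ± 0.19, and *CSD2*, the chloroplast copper and zinc superoxide dismutase, fell from 306 and 317 CPM to 107 and 106 (-1.55 ± 0.064).

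Of 18 tested iron genes, 8 were higher and 5 lower, against 31.1% and 30.7% of all genes, with a median of 0.026. Without Col-0 replicate 1, 5 were higher and 6 lower, and with scaling by library totals alone 12 were higher and 2 lower. *BHLH38* and *BHLH39*, transcription factor genes induced by iron deficiency, rose by 2.94 ± 0.12 and 3.09 ± 0.17. *BHLH38* was at 1.36 and 1.54 CPM in Col-0, 37.1 and 33.7 in *somi2*, 2.49 and 2.00 in *mips1*, with 11.1 and 11.5 in *mips1 somi2*, lower than in *somi2* (-1.64) and higher than in *mips1* (2.35). *NAS3*, a nicotianamine synthase gene repressed under iron deficiency, fell by 2.08 on the log2 scale (SE 0.15), and the transporter gene *YSL1* fell by 1.00 (SE 0.074). The ferritin gene *FER1*, also repressed under iron deficiency, was slightly higher than in Col-0 (0.21 ± 0.068, adjusted p = 0.0159), a call lost without Col-0 replicate 1 (0.17) or *mips1 somi2* replicate 1 (0.18).

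Among auxin genes more were lower than higher. Of 23 tested Aux/IAA repressor genes, which auxin induces, 14 were lower and 5 higher (median -0.51), and 9 lower and 8 higher with scaling by library totals alone. *IAA29* was at 25.4 and 23.9 CPM in Col-0, 7.85 and 7.07 in *somi2*, 3.24 and 2.80 in *mips1*, with 5.00 and 4.92 in *mips1 somi2* (-2.31 ± 0.096), and *IAA6* changed by -2.61 ± 0.12. Of 17 genes of auxin synthesis, conjugation and transport, 9 were lower and 3 higher, and the median of -0.34 turned to 0.039 with scaling by library totals alone, with 6 higher and 3 lower. Without Col-0 replicate 2, 5 were higher and 8 lower. The synthesis genes *YUC8* and *YUC9* fell by 2.74 and 2.64 on the log2 scale (SE 0.20 and 0.27).

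Cell wall and wax families gave smaller differences. Of 22 tested expansin genes, 10 were higher and 5 lower. Of 18 genes for 3-ketoacyl-CoA synthases, which elongate fatty acids for wax, 5 were higher and 6 lower. Of 8 cellulose synthase genes, 3 were higher and 1 lower. Over all genes 31.1% were higher and 30.7% lower. For cellulose synthase, leaving out Col-0 replicate 1 gave 3 higher and 3 lower genes, leaving out replicate 2 gave 4 and 0, and scaling by library totals alone gave 6 and 0. That scaling gave 9 higher and 4 lower 3-ketoacyl-CoA synthase genes. The phloem markers *APL* and *SUC2* were both lower, with log2 fold changes of -1.18 ± 0.074 and -0.52 ± 0.15. The call of *SUC2* was lost without *mips1 somi2* replicate 1 (-0.58) or replicate 2 (-0.45) and with scaling by library totals alone (-0.14), and its value ranged from -0.75 without Col-0 replicate 1 to -0.23 without Col-0 replicate 2.

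Among genes averaging at least 50 normalized counts, which leaves out *SEP2*, the largest decreases after *AT1G27565* were led by *AT5G35777*, annotated as an uncharacterized protein, at 9.07 and 10.1 CPM in Col-0, 1.46 and 2.00 in *somi2*, 4.58 and 5.04 in *mips1*, with 0.206 and 0.266 in *mips1 somi2* (-5.35 ± 0.20). *AT1G25430*, likewise uncharacterized, fell from 11.3 and 13.4 CPM to 0.703 and 0.813 (-4.04 ± 0.15), and both genes were lower than in either single mutant. *AGP3*, an arabinogalactan protein gene, fell from 3.32 and 2.53 CPM to 0.254 and 0.133 (-3.86 ± 0.28) and was between 0.191 and 0.262 CPM in the single mutants. The other 6 of the 10 largest decreases lay between -3.82 and -4.26, and among them *AT3G05845* and *AT3G29631* overlap each other.

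Some genes of *mips1 somi2* were apart from all 3 other lines. The genes named here were chosen after their values were seen, among genes called in the same direction against Col-0, *somi2* and *mips1*, and the 3 comparisons share the *mips1 somi2* libraries. As for the clock genes, the part of the hour of harvest, which is not given for any line, was not tested. On the low side the differences were large. *BT2*, which encodes a BTB and TAZ domain protein and is repressed by sugar, was at 102 and 80.0 CPM in Col-0, 194 in both *somi2* libraries, 384 and 364 in *mips1*, with 9.67 and 9.86 in *mips1 somi2*. Its log2 fold change was -3.22 ± 0.11 against Col-0, -4.31 against *somi2* and -5.26 against *mips1* (adjusted p = 2.54e-10, 1.98e-10 and 1.56e-12). The related *BT5* (-2.91 ± 0.11) and *BT1* (-1.76 ± 0.079) fell with it. *AT2G20670* was at 208 and 187 CPM in Col-0, 170 and 168 in *somi2*, 141 and 143 in *mips1*, with 24.2 and 21.7 in *mips1 somi2* (-3.10 ± 0.08). *AT3G15450*, annotated as an aluminium-induced protein, fell from 461 and 414 CPM in Col-0 to 53.5 and 57.6 (-2.98 ± 0.082), with *somi2* at 275 in both libraries and *mips1* at 558 and 593.

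Transcription factor genes were among these genes as well. *RAV1* and *RAV2*, of the AP2 and B3 family, were at 89.7 and 93.4 and at 114 and 110 CPM in Col-0 and at 24.4 and 23.9 and at 28.2 and 28.3 CPM in *mips1 somi2*, changes of -1.92 ± 0.067 and -1.99 ± 0.065. The cold response regulator *CBF1* fell by 2.95 on the log2 scale (SE 0.21) and *DREB26* by 1.84 (SE 0.084). For *RAV1* the 6 libraries of the other lines ranged from 87.2 to 152 CPM and did not overlap with those of the double mutant.

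**Figure D5:**
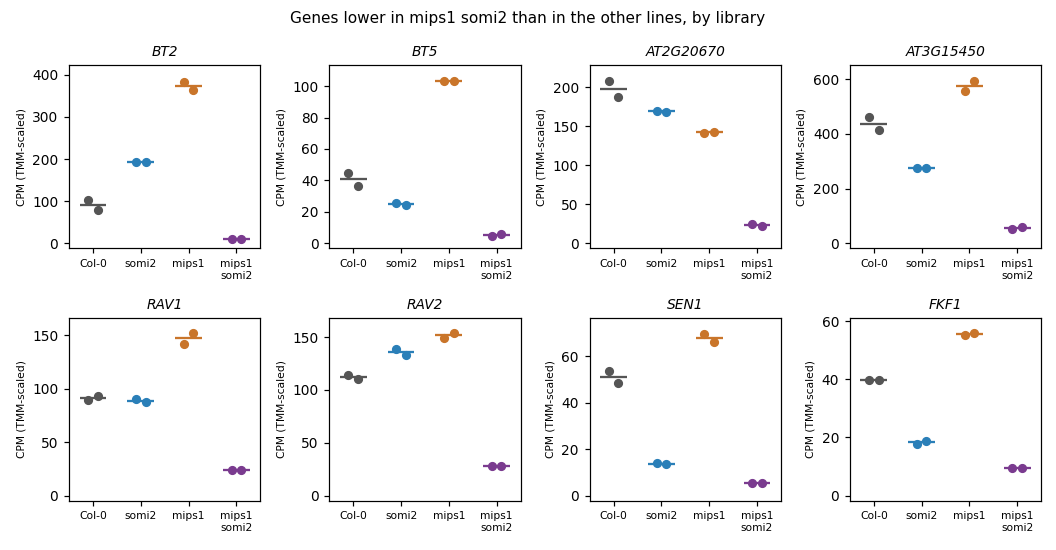
Level in CPM (y axis, linear) of 8 genes in the 2 libraries of each line (points; bars are means). All 8 were lowest in *mips1 somi2*, with *BT2* at 9.67 and 9.86 CPM against 80.0 to 384 CPM in the other lines.

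On the high side, the genes apart from all other lines included *MYB113*, *VSP1* and *JAZ10*, described above. *THI2.1*, a thionin gene induced by JA, was at 0.167 and 0.106 CPM in Col-0, 8.23 and 8.12 in *somi2*, 0.0699 and 0.0547 in *mips1*, with 30 and 31.3 in *mips1 somi2* (7.90 ± 0.15 against Col-0, 1.91 against *somi2*). *AT3G22275*, annotated as a JAZ protein gene, rose from 0.0955 and 0.0706 CPM to 2.65 and 2.25 (4.93 ± 0.28), with *somi2* and *mips1* between 0.620 and 0.811 CPM. *PGL5*, a 6-phosphogluconolactonase gene, rose from 2.48 and 2.39 CPM in Col-0 to 95.1 and 101 (5.33 ± 0.08), with 33.8 and 33.7 in *somi2* and 5.93 and 5.89 in *mips1*. *CYP81F4*, which modifies indole glucosinolates, was at 0.0716 and 0.0706 CPM in Col-0, with 89.6 and 81.4 in *mips1 somi2* (10.20 ± 0.14), but it overlaps *AT4G37409*, at 81.6 and 75.0 CPM in *mips1 somi2*. Of the genes named from the starch list onward, *BAM3*, *FKF1*, *MIPS3*, *IMPL1*, *GOLS1*, *BHLH38*, *BT5*, *AT3G15450*, *THI2.1* and *AT3G22275* also overlap an annotated neighbour, as does *CRK19*, and reads in the shared stretch cannot be told apart.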

How the data were processed

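Rosette leaf RNA of 8 libraries (4 lines, 2 each) was analysed. The authors trimmed single-end reads with Trimmomatic, mapped them to TAIR10 with STAR 2.7.0d and counted them with featureCounts 1.6.3 over Araport11 exons. Per the file headers, the option for multi-mapping reads was set with a minimum mapping quality of 10, below which STAR places reads that map to several sites, so near-identical copies may lose reads. A read over several genes was given to each, and no strand option was set. The deposited counts are whole reads per gene, without normalization; the deposited table also holds another measure, the exon length (bp) of each gene. Deposited normalized counts, and tables of the authors' fold changes and p-values, were not used. No value column was left unmapped.

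Libraries were grouped by label. Counts of 23916 genes kept by filterByExpr were scaled by TMM and tested with edgeR 4.0.16 (quasi-likelihood, robust, all 8 libraries, no block) in R 4.3.3, with Benjamini-Hochberg adjustment and a call at 0.05. The SE is the size of the log2 fold change divided by the root of F. CPM are TMM-scaled; normalized counts are CPM rescaled to the mean library total. RPKM, CPM per kilobase, served only to pick the most abundant member of a list. Detection was set at 3 counts; bounds use it per library, and 95% intervals are exact Clopper-Pearson. Symbols, products and upstream sequence came from RefSeq TAIR10.1, which matched 37039 of 37336 genes, 99.5% of the nuclear ones with the same start and end.

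Genes to name were taken from the mutated genes, those the study names, the 10 largest changes each way among called genes averaging at least 50 normalized counts without overlap between groups, the 10 most abundant nuclear genes of Col-0, up to 2 members each way and the most abundant member of each of 42 lists, and the 5 most abundant genes switched on or off; other list members named, and the genes apart from all lines, were chosen after their values were seen. The members and lists were chosen with earlier results of these data known, and 9 listed loci were dropped because the annotation gives them no such symbol. In counts simulated for *mips1 somi2* against Col-0 over 22234 genes, 178 of 200 genes changed by 2-fold were recovered (89%). Of the calls, 10.6% were false, more than the threshold of 0.05 is meant to allow. All lines were drawn from the Col-0 mean and only the 200 genes changed. These rates therefore do not carry over to the data, where 61.7% of the genes were called. Alternatives were DESeq2 1.42.0, RLE factors, library totals alone, other count filters (at least 1 in any, or 10 in every library), the 4 libraries compared alone, a replicate block, nuclear genes only, and each of the 4 libraries left out. Figures were drawn with matplotlib 3.10.9.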

Additional observations from a re-analysis of the deposited data

How the results depend on the processing

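Scaling by library totals alone changed the balance of the comparison most, with 13721 genes higher, 2848 lower, 4801 higher by at least 1 and 571 lower by at least 1 on the log2 scale, since it moved the median of all genes by 0.38. Under it the log2 fold changes turned positive for *LOH2* (0.36), *IMPL1* (0.11), *VTC4* (0.31), *PAD4* (0.18), *CBP60G* (0.33), *JAR1* (0.14), *MYB28* (0.16), *MYB51* (0.062), *ATE2* (0.064), *RAP2.12* (0.35), *MBF1C* (0.35), *CAT3* (0.29), *CESA2* (0.17), *MYB60* (0.025), *KCS6* (0.13), *IAA8* (0.035), *SLAC1* (0.10), *JAZ6* (0.13) and *JAZ3* (0.16), and so did the medians of the lists of ceramide (0.18), auxin synthesis (0.039), chlorophyll synthesis (0.16), senescence (0.25), starch (0.069), flowering (0.13), 3-ketoacyl-CoA synthase (0.32) and inositol synthesis genes (0.38). The senescence median ranged from -0.27 to 0.025 with one library left out, positive without Col-0 replicate 2, and that of the flower organ markers turned negative with at least 10 counts in every library (-0.037), with the 4 libraries compared alone (-0.080) and without *mips1 somi2* replicate 1 (-0.019), against 0.49 without replicate 2. Requiring 10 counts in every library, which removes genes that are silent in a line, left 1815 genes higher by at least 1. Under DESeq2, RLE factors, the other filter, nuclear genes only and the 4 libraries alone, each of the 4 counts stayed within 1.5 times its value. Leaving out one library at a time gave 6314 to 7716 genes higher, 6132 to 7476 lower, 2922 to 3189 higher by at least 1 and 1161 to 1501 lower by at least 1; a line left with 1 library is then assumed to vary like the others. Deviations of same-numbered libraries correlated at -0.368 to 0.356, with both signs, so the numbers gave no common pairing. Col-0 correlated with *mips1* at 0.356 and with *mips1 somi2* at -0.368. A factor shared by libraries of unlike numbers was not tested. With a replicate block 7235 genes were higher and 7134 lower. With 2 libraries a line, small changes near the threshold depend on single libraries, and genes under 3 counts are limited by depth.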
